A study of Mus musculus with 10 samples.

Results

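The 39 Hox genes of the mouse were followed through 10 RNA-seq libraries of brainstem microglia, the resident immune cells of the brain. The members are every row of the deposited expression table whose gene name is Hox followed by a cluster letter (a, b, c or d) and a number, and they are 39 of 37447 genes in the table. The libraries form 3 groups of mice aged 6 weeks. GFP expressing microglia cut from brainstem sections by laser capture microdissection make up LCM_GFP (n = 4, 3 female and 1 male). GFP expressing microglia sorted by flow cytometry from dissociated tissue make up FACS_GFP (n = 3, 2 female and 1 male). Wild-type C57BL/6 microglia sorted in the same way make up FACS_WT (n = 3, all male). The promoter that drives GFP and the strain of the GFP mice are not given in the sources used here, and the labels give the tissue as brain and name the brainstem only for the series and for the captured slices. Captured tissue was fixed in paraformaldehyde and its RNA was taken up with proteinase K and acid phenol, whereas sorted cells went through a Percoll gradient and TRIzol, so the isolation method cannot be told apart from fixation and RNA extraction.

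Hox genes encode homeodomain transcription factors. They lie in 4 clusters in the mouse genome, and genes at the same place in different clusters form a paralog group. In the embryo, low-numbered groups are active from the hindbrain backwards and high-numbered groups only further back, in the trunk and limbs, so the set of Hox genes that a tissue expresses records where along the body axis it arose. The embryonic forebrain and midbrain largely lack them. Microglia arise from the yolk sac and not from the neural tube.

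Levels are given as FPKM, fragments scaled to transcript length and to sequencing depth, which allows levels of different genes to be compared. The labels call the libraries biological replicates. No read counts or counting intervals are available, and an FPKM of 0 is described as listed at 0. Summed FPKM per library ranged from 393949 to 632854 in LCM_GFP and from 433572 to 531447 in the 6 sorted libraries. The sorted libraries resembled each other closely (Pearson's r of log2(FPKM + 1) across genes 0.973 to 0.983), while the captured ones did so less (0.781 to 0.852). All 10 listed microglial markers, among them P2ry12, Tmem119 and Csf1r, reached 1 FPKM in every library, and their summed level was 1437 to 3160 FPKM in LCM_GFP against 4266 to 6704 FPKM in the sorted libraries. Captured libraries also held RNA of other cells: the sum of 10 neuronal markers, for example, ran to 2440 FPKM in LCM_GFP library 4 against at most 9.99 FPKM in any sorted library. In bulk samples such as these, fewer cells of a type and less RNA per cell cannot be told apart.

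Libraries 1 and 3 of LCM_GFP stood apart from libraries 2 and 4 before any Hox gene is considered. Hbb-y, an embryonic beta-like globin, was at 902 FPKM in library 1 and 439 FPKM in library 3, but at 0.102 and 0.0666 FPKM in libraries 2 and 4, and was listed at 0 in all 6 sorted libraries. Hba-x, the embryonic zeta globin, was at 1853, 2.16, 660 and 0.225 FPKM in libraries 1 to 4, and H19, an imprinted RNA of fetal tissue, at 299, 0.117, 49.5 and 0.121 FPKM. The mice are labelled as 6 weeks old. Results are therefore given library by library, and for libraries 2 and 4 without libraries 1 and 3.

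Hox genes were detected in captured libraries and hardly at all in sorted ones. Counting a gene as detected at 1 FPKM or more, 23 of the 39 members were detected in at least one LCM_GFP library and 0 in any sorted library. Library 1 of LCM_GFP held 18 members, library 2 held 7, library 3 held 8 and library 4 held 1. At 0.1 FPKM or more the counts were 22, 10, 25 and 1, so that library 3 then held more members than library 1. No member was detected in more than 2 of the 4 captured libraries: 12 were detected in 1 library and 11 in 2. Of all 4251 genes that reached 1 FPKM in a captured but in no sorted library, 41.9% did so in 1 captured library, 20.2% in 2 and 23.9% in all 4. Without library 1 the number of members detected was 13, and in libraries 2 and 4 alone it was 8.

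**Figure D1:**
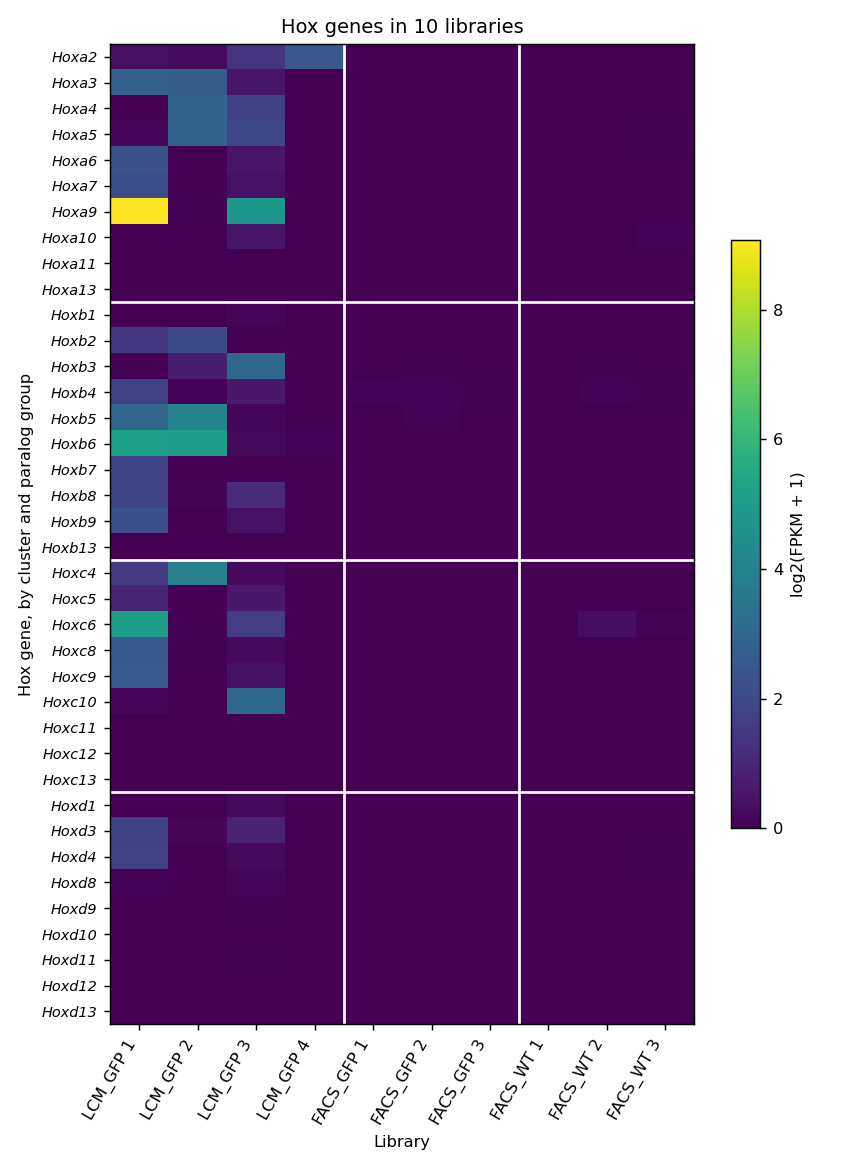
Level of 38 of the 39 Hox genes, as log2(FPKM + 1), in the 4 LCM_GFP, 3 FACS_GFP and 3 FACS_WT libraries; rows are ordered by cluster and paralog group, and white lines separate clusters and groups. Signal lies in the 4 captured libraries, with a different set of genes in each, and Hoxa9 in library 1 (537 FPKM) is the highest value.

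The captured libraries differed in how much Hox RNA they held as well as in which genes. Summed over the 39 members, the level was 663 FPKM in library 1, 82.8 FPKM in library 2, 56.5 FPKM in library 3 and 4.56 FPKM in library 4. In the sorted libraries the sum lay between 0.0563 and 0.332 FPKM. Libraries 1 and 2 shared 5 detected members (Hoxa3, Hoxb2, Hoxb5, Hoxb6 and Hoxc4), which is 27.8% of those in library 1 and 71.4% of those in library 2. Libraries 1 and 3 shared Hoxa9, Hoxb8 and Hoxc6, 16.7% of the first list and 37.5% of the second. Libraries 2 and 4 had no detected member in common.

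Paralog groups 1 to 4, whose embryonic domains begin in the hindbrain, were the part of the family found in every captured library. They supplied 7 of 12 members in library 1, 4 in library 2, 3 in library 3 and 1 in library 4. Hoxa2, which sets the identity of the second rhombomere and of the second pharyngeal arch, was at 0.292, 0.212, 1.54 and 4.45 FPKM in LCM_GFP libraries 1 to 4. It was listed at 0 in 5 of the 6 sorted libraries and at 0.0072 FPKM in FACS_GFP library 3. Hoxa2 was the one member detected in library 4, where it made up 97.6% of the summed Hox level, and all 4 captured libraries lay above all 6 sorted ones.

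Hoxb1, known for patterning the fourth rhombomere, did not exceed 0.110 FPKM in any library. Hoxb2 was at 1.77 and 3.22 FPKM in libraries 1 and 2 and listed at 0 elsewhere.

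Group 3 was divided between libraries by cluster. Hoxa3, a gene of the third pharyngeal arch and posterior hindbrain, was at 5.91, 5.38, 0.467 and 0 FPKM in LCM_GFP libraries 1 to 4. Hoxb3 was at 0, 0.704, 7.24 and 0 FPKM in the same libraries. Libraries 1 and 2 were therefore high for Hoxa3 and library 3 for Hoxb3. Hoxd3 was at 2.27, 0.0769, 0.890 and 0 FPKM. In the sorted libraries, Hoxa3 was listed at 0 and Hoxb3 reached at most 0.039 FPKM.

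In group 4, Hoxc4 was highest in library 2, with 1.95, 14.5, 0.172 and 0 FPKM in LCM_GFP libraries 1 to 4. Hoxa4 was at 0, 6.16, 2.31 and 0 FPKM, so that it was present in libraries 2 and 3 and listed at 0 in library 1. Hoxb4 and Hoxd4 had the opposite order, with 2.47 and 2.35 FPKM in library 1 and no more than 0.548 FPKM in any other library. Hoxb4 was the member seen most often in sorted cells: it lay above 0 in all 6 sorted libraries, at 0.0200 to 0.0701 FPKM, far under the detection limit used here.

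Paralog groups 5 to 8, expressed in the embryo from the neck through the trunk, were detected in libraries 1, 2 and 3 but not in library 4. Hoxb6 was at 33.6, 30.4, 0.136 and 0.0731 FPKM in LCM_GFP libraries 1 to 4 and was listed at 0 in every sorted library. It was the highest member in library 2 and lay at nearly the same level in library 1, whereas libraries 3 and 4 were low. Its neighbour Hoxb5 was at 6.83, 15.5, 0.129 and 0 FPKM, again high in libraries 1 and 2. Hoxc6 was at 32.7, 0.0145, 2.13 and 0 FPKM, so the C-cluster member of group 6 was high in library 1 and low in library 2. It also gave the highest Hox value in a sorted library, 0.236 FPKM in FACS_WT library 2.

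Hoxa5, which acts in the cervical and upper thoracic region and in the developing lung, was at 0.119, 6.00, 2.83 and 0 FPKM in libraries 1 to 4. It followed Hoxa4 in being present in libraries 2 and 3. The next genes in the same cluster, Hoxa6 and Hoxa7, were at 3.98 and 3.48 FPKM in library 1 and under 0.5 FPKM in the other 3. Of the A cluster genes from Hoxa2 to Hoxa9, library 1 therefore held Hoxa3, Hoxa6, Hoxa7 and Hoxa9. Hoxa2, which lies before Hoxa3, and Hoxa4 and Hoxa5, which lie between Hoxa3 and Hoxa6, were below 1 FPKM there. Hoxb7, Hoxb8 and Hoxc8 were at 2.61, 2.63 and 4.90 FPKM in library 1. Of these, Hoxb8 alone was detected in another library, at 1.19 FPKM in library 3.

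Paralog groups 9 to 13, the posterior genes of the family, were detected in libraries 1 and 3. Hoxa9, a gene of the trunk and of blood progenitors, was at 537, 0.0467, 26.3 and 0 FPKM in LCM_GFP libraries 1 to 4 and was listed at 0 in all 6 sorted libraries. It was the highest Hox value in both of these libraries, ranked 90 from the top among 16324 genes above 0 in library 1 and 3208 among 16969 in library 3, and made up 81.1% of the summed Hox level in library 1. The next genes on either side of it were low: Hoxa7 was at 3.48 FPKM in library 1 and Hoxa10 was listed at 0 there. Without Hoxa9, the summed Hox level of library 1 was 126 FPKM.

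Hoxc10, a gene of the lumbar level and hindlimb, was at 0.116, 0, 7.31 and 0 FPKM in libraries 1 to 4, which makes library 3 the one with the most posterior detected member. Hoxb9 and Hoxc9 were at 3.66 and 5.14 FPKM in library 1 and at most 0.354 FPKM elsewhere. Of the 16 members of groups 9 to 13, 3 were detected in library 1, 2 in library 3 and 0 in libraries 2 and 4. In all, 8 members were listed at 0 in all 10 libraries: Hoxa11, Hoxa13, Hoxc11, Hoxc12, Hoxc13, Hoxd10, Hoxd12 and Hoxd13. In the embryo, groups 9 and 10 are known from levels behind the hindbrain. In library 2, groups 5 to 8 made up 62.9% of the summed Hox level, nearly all of it from groups 5 and 6 (26.0% and 36.8%). Whether the Hox genes of any captured library describe hindbrain position was not tested.

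**Figure D2:**
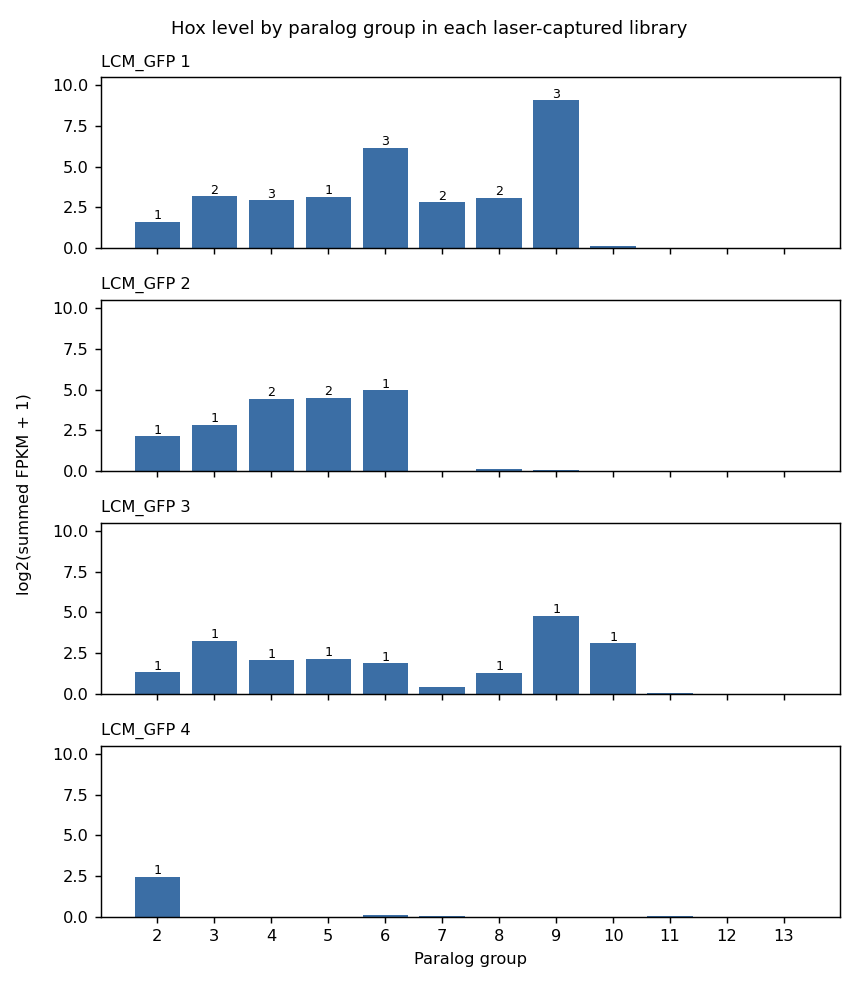
Summed level of paralog groups 2 to 13, as log2(summed FPKM + 1), in each of the 4 LCM_GFP libraries; the number above a bar is how many members of the group reached 1 FPKM. Library 1 reaches group 9, library 2 spans groups 2 to 6, library 3 groups 2 to 10 and library 4 group 2 alone.

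The range of detected groups and their weight within it differed between the captured libraries. The detected members reached group 9 in library 1, with a median group of 6. They ran over groups 2 to 6 in library 2, with a median of 4, and over groups 2 to 10 in library 3, with a median of 5.5. In library 2, groups 1 to 4 made up 37.0% and groups 5 to 8 made up 62.9% of the summed Hox level. In library 3, groups 9 to 13 made up 61.5%, and without Hoxa9 they made up 28.1%, below groups 1 to 4 at 45.1%. By cluster, the B cluster led in library 2 with 60.4% of the level and the A cluster led in library 1 with 84.3% and in library 3 with 61.4%, while the D cluster never exceeded 2.57% in any captured library. In libraries 1 and 3 the lead of the A cluster rested on Hoxa9: without that gene the A cluster held 17.1% and the B cluster 42.7% of the level in library 1, and the A cluster held 27.8% and the C cluster 35.3% in library 3.

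The promoters of Hoxa9 and Hoxa2 are shown because these genes gave the highest level in the captured libraries and the one detected member of library 4. They are RefSeq sequences of build GRCm38, each running from 250 bases before to 50 bases after the gene's start on the minus strand, at chr6:52227321-52227620 for Hoxa9 and chr6:52164782-52165081 for Hoxa2. Capitals mark matches, on either strand, to TGATNNAT, a form of the site bound jointly by HOX and PBX proteins, and to TGACAG, a site of MEIS proteins.
Hoxa9: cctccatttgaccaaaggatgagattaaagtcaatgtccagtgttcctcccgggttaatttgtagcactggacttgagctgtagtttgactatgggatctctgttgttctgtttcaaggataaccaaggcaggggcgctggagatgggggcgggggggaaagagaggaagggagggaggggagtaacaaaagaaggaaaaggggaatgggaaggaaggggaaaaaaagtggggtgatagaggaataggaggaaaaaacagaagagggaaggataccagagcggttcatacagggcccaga
Hoxa2: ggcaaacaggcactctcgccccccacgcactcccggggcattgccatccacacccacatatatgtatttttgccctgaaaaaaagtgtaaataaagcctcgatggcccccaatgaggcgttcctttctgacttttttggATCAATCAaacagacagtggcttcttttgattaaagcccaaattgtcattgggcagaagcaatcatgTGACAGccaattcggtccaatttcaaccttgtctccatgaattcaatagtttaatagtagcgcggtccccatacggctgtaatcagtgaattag
The Hoxa2 window held 1 match to each motif, 111 and 44 bases before the start and not overlapping, and the Hoxa9 window held 0 of either. TGATNNAT occurred in 8.85% of all 32851 promoters of the same length and TGACAG in 19.2%. Among the 24 promoters matched to 22 of the 39 members, TGATNNAT occurred in 4 (Hoxa2, Hoxb1, Hoxb8 and Hoxd11) and TGACAG in 2 (Hoxa2 and Hoxa3). TATAAA and CCAAT were also searched on both strands and occurred in 13.6% and 37.4% of all promoters and in 4 and 15 of the 24.

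The Hox genes could not be tested between isolation methods with limma at the filter used here. Genes were tested with limma on log2(FPKM + 1) where they reached 1 FPKM in at least 3 of the compared libraries, and called at a Benjamini-Hochberg adjusted p under 0.05. No Hox gene met that filter, since none was detected in more than 2 captured libraries, so 0 members were tested. Among all genes, 12.5% of 13403 were called higher and 19.6% lower in LCM_GFP than in FACS_GFP, and 12.3% of 13415 were called higher and 19.1% lower in LCM_GFP than in FACS_WT. Between FACS_GFP and FACS_WT, 0.0339% of 11814 genes were called higher and 0.0762% lower. The median log2 change over all genes was -0.60 for LCM_GFP against FACS_GFP, and with median ratio scaling it was -0.12, which turned the split of calls to 1868 higher and 1257 lower, from 1681 higher and 2624 lower without it.

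With the filter lowered to 0.1 FPKM, 6 members could be tested against FACS_GFP, all of which passed it through the captured libraries alone. None was called by limma and 0 had an unadjusted p under 0.05, where 9.42% of all genes were called higher. The log2 change was 1.11 ± 0.51 (SE) for Hoxa2 (limma adjusted p = 0.144), 1.22 ± 0.68 for Hoxa5 (limma adjusted p = 0.214) and 2.59 ± 1.39 for Hoxb6 (limma adjusted p = 0.197). Against FACS_WT, 7 members could be tested, Hoxc6 with the help of 1 FACS_WT library, and none was called by limma or had an unadjusted p under 0.05, where 9.07% of all genes were called higher. Without any filter, 31 members entered each of these comparisons and 14 that of FACS_GFP against FACS_WT, and limma called none, with 0 at an unadjusted p under 0.05.

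Hoxa2 and Hoxb6 were the members whose groups did not overlap. They were higher in each of the 4 captured libraries than in each of the 6 sorted libraries, which is 8.70% of the 23 members detected. Of all 15768 genes that reached 1 FPKM in a captured library, 16.4% did so, a larger share.

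The authors' deposited table of group comparisons gives 36 rows for the 39 members, because 3 rows combine neighbours: Hoxb7 with Hoxb8, Hoxd3 with Hoxd4, and Hoxa2 with Hoxa3 and an overlapping transcript. In the authors' deposited table, 1 of 21 tested Hox rows was significant for LCM_GFP against FACS_GFP, where 4.48% of all 14813 tested genes were significant and higher. It was Hoxb5, with the authors' log2 fold change of 7.63 and q-value of 0.00338 in the authors' deposited table. The FPKM of Hoxb5 were 6.83, 15.5, 0.129 and 0 in LCM_GFP, against 0, 0.0683 and 0 in FACS_GFP. For LCM_GFP against FACS_WT, the authors' deposited table gives 0 significant of 21 tested Hox rows, with 4.38% of all tested genes significant and higher. Hoxb5 has a q-value of 0.813 there in the authors' deposited table. It was listed at 0 in every FACS_WT library, so the higher q-value does not go with a smaller difference. Both comparisons use the same captured libraries.

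Other transcripts inside the Hox clusters followed the same libraries. Between the first and the last member of each cluster lie 29 further rows, of which 9 reached 1 FPKM in a captured library and 1 (Gm11539) in a sorted library. 5730446D14Rik in the A cluster was at 5.72, 0.145, 77.6 and 0 FPKM in LCM_GFP libraries 1 to 4 and was listed at 0 in every sorted library. Hoxb3os, an antisense RNA in the B cluster, was at 1.02, 7.99, 0.136 and 0.146 FPKM. The 6 microRNA rows were listed at 0 in all 10 libraries. Of the 39 members, 26 overlap another row of the table, among them Hoxa3, whose deposited span covers Hoxa4, Hoxa5 and Hoxa6, and Hoxa2, Hoxb2, Hoxb3, Hoxb5 and Hoxb6. Strand use in counting is not stated, so the levels of overlapping members cannot be told apart from those of their neighbours with certainty.

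HOX proteins bind DNA together with PBX, MEIS and PKNOX (PREP) cofactors, and these were far more evenly present than the Hox genes. Of 9 cofactor genes, 8 were tested and 3 were called higher in LCM_GFP than in FACS_GFP, with 0 lower. That is a share of 37.5% of those tested against 32.1% of all genes in both directions. The median log2 change of the 8 was 0.90, against -0.60 for all genes. Meis2 and Pknox2, 2 of the 3 called higher, passed the filter through the captured libraries alone, so the filter set their direction. Meis2, a cofactor expressed in many neurons, was at 212, 127, 318 and 300 FPKM in the captured libraries, listed at 0 in FACS_GFP and at 0 to 0.113 FPKM in FACS_WT. All 4 captured libraries were high and none overlapped a sorted one (log2 change 7.82 ± 0.44 SE, limma adjusted p = 5.08e-05).

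Pknox2, of the PREP family, was at 45.9, 8.36, 1.84 and 6.47 FPKM in LCM_GFP libraries 1 to 4 and at most 0.0088 FPKM in FACS_GFP (limma adjusted p = 0.0224). This call was lost when any 1 FACS_GFP library was left out. Calls over all genes also fell then, from 1681 higher and 2624 lower to 738 to 758 higher and 304 to 329 lower. Meis1 and Pbx3 had their highest values in library 1, at 38.4 and 176 FPKM, and did not pass the test. Pbx4, chosen after its values were seen, was at 37.1 FPKM in library 4 and under 0.2 FPKM in the 9 others. Pknox1, at 5.36 ± 3.77 FPKM in LCM_GFP and 19.2 ± 2.4 FPKM in FACS_GFP (SD, n = 4 and 3), had an adjusted p of 0.0505 by limma.

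**Figure D3:**
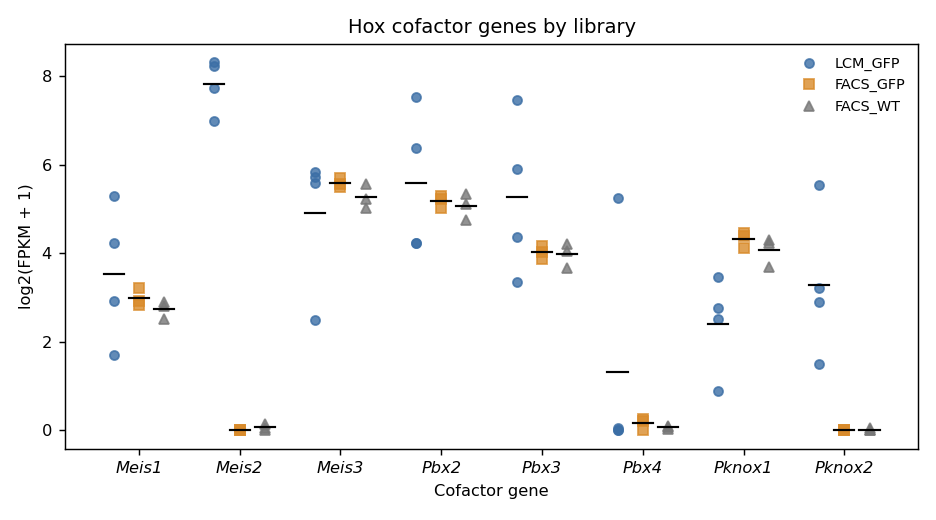
Level of 8 of the 9 Hox cofactor genes, as log2(FPKM + 1), with 1 point per library in LCM_GFP, FACS_GFP and FACS_WT (n = 4, 3 and 3) and a bar at the mean of each group. Meis2 and Pknox2 are near 0 in the sorted groups, and the captured libraries spread more widely than the sorted ones for most of the genes.

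Genes that mark other positions along the neural axis also differed from one captured library to the next. Otx2 and Otx1 are needed for forebrain and midbrain, and in the early embryo they are known to be excluded from the hindbrain. They were at 6.25 and 4.98 FPKM in LCM_GFP library 4 and listed at 0 in libraries 1, 2 and 3. Lhx9 was at 17.1 FPKM and Lhx2 at 4.96 FPKM in library 4, and neither exceeded 0.368 FPKM in libraries 1 to 3. Library 4 is the one with the fewest Hox genes. Pax2 and Pax8, paired-box genes of the midbrain-hindbrain boundary and of inhibitory neurons further back, were at 47.9 and 7.16 FPKM in library 2 and at 20.7 and 31.6 FPKM in library 3. Gbx2, which sets the front edge of the hindbrain, was at 12.5 FPKM in library 1. Of this list of 22 forebrain and midbrain genes, 1 could be tested and it was not called by limma.

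Of 15 hindbrain patterning genes, 4 were tested against FACS_GFP, with 1 called higher and 2 lower, a share of 75.0% against 32.1% of all genes. Their median log2 change was -0.77. The filter was passed through the captured libraries alone by 2 of the 4, among them Nr2f2, the 1 called higher. Egr2, called lower, passed it through the sorted libraries alone. The filter thus set the direction of both. Nr2f2, a nuclear receptor, was at 14.2, 1.77, 24.3 and 7.17 FPKM in LCM_GFP and listed at 0 in all 6 sorted libraries (limma adjusted p = 0.0123). Egr2, which in the embryo patterns rhombomeres upstream of group 2 Hox genes and which macrophages also express, went the other way. Egr2 was at 0, 0.347, 0 and 0.159 FPKM in LCM_GFP, against 23.8, 19.8 and 23.9 FPKM in FACS_GFP (log2 change -4.39 ± 0.39 SE, limma adjusted p = 0.000275). The call of Nr2f2 was lost when any 1 FACS_GFP library was left out, as were most calls over all genes. Fgf3, Fgf8, Cdx1, Cdx2, Cdx4 and Cyp26a1 were listed at 0 in every captured library. Among 17 brainstem neuron genes none could be tested, and Gata3 was at 11.3 FPKM in library 4 and Tbx20 at 4.03 FPKM in library 1, while Phox2a and Tlx3 were listed at 0 in all 10.

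**Figure D4:**
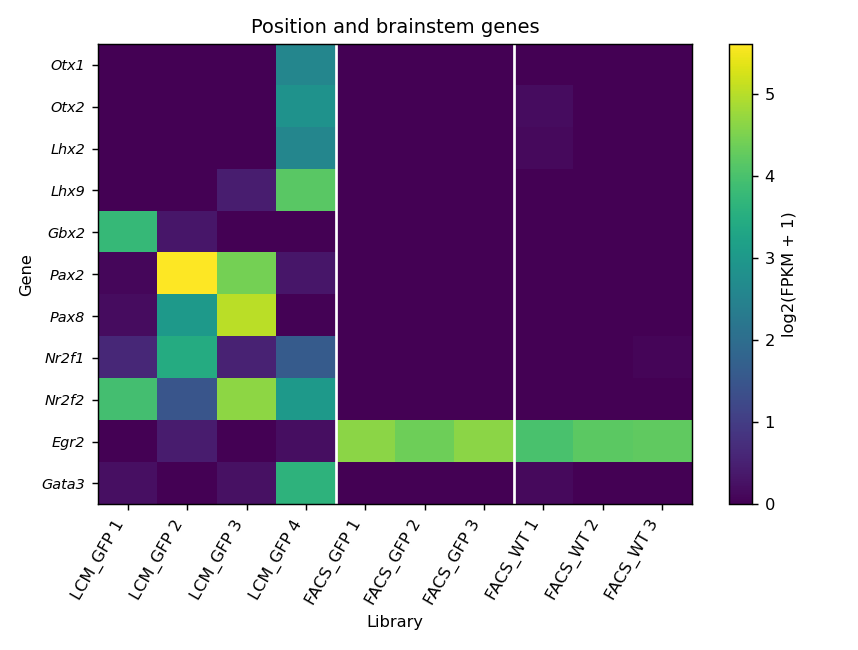
Level of 11 position and brainstem genes, as log2(FPKM + 1), in the 4 LCM_GFP, 3 FACS_GFP and 3 FACS_WT libraries. Otx1, Otx2, Lhx2 and Lhx9 are high in library 4, Gbx2 in library 1 and Pax2 and Pax8 in libraries 2 and 3, whereas Egr2 is higher in the sorted libraries.

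Retinoic acid switches on Hox genes in the hindbrain. Of 15 genes of its synthesis and signalling, 7 were tested against FACS_GFP. In LCM_GFP 3 were called higher and 1 lower, a share of 57.1% against 32.1% of all genes. The 3 called higher (Aldh1a1, Rara and Aldh1a2) passed the filter through the captured libraries alone, so the filter set their direction. Aldh1a1, an enzyme that makes retinoic acid, was at 23.9, 39.8, 18.9 and 54.5 FPKM in LCM_GFP and at most 0.384 FPKM in the sorted libraries (log2 change 4.75 ± 0.50 SE, limma adjusted p = 0.000458). Rara, a retinoic acid receptor, was at 38.6, 6.10, 8.83 and 2.09 FPKM in LCM_GFP and at most 0.111 FPKM in the sorted libraries (limma adjusted p = 0.0199). Rxrb, a partner receptor, averaged 15.6 ± 8.3 FPKM in LCM_GFP and 55.1 ± 12.6 FPKM in FACS_GFP (SD, n = 4 and 3; limma adjusted p = 0.0269), and Aldh1a2, the main retinoic acid enzyme of the embryo, 1.64 ± 0.73 FPKM in LCM_GFP and 0.0060 ± 0.0104 FPKM in FACS_GFP (limma adjusted p = 0.00944). The calls of Rara, Rxrb and Aldh1a2 were lost when any 1 FACS_GFP library was left out, as were most calls over all genes. Rarb, a receptor gene that is itself a target of retinoic acid, was at 0.467, 26.5, 0.167 and 15.8 FPKM in libraries 1 to 4. Crabp1, a cellular retinoic acid binding protein, had the reverse order, with 115, 0.350, 48.1 and 0.050 FPKM. Rarb was therefore high in libraries 2 and 4 and Crabp1 in libraries 1 and 3.

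Polycomb proteins keep Hox genes silent and trithorax proteins keep them active. Of 22 such genes, 21 were tested against FACS_GFP and 1 was called higher and 1 lower, a share of 9.52% against 32.1% for all genes in both directions. Phc1, a subunit of Polycomb repressive complex 1, averaged 37.2 ± 5.4 FPKM in LCM_GFP (SD, n = 4) and 12.5 ± 3.8 FPKM in FACS_GFP (SD, n = 3; limma adjusted p = 0.0180). Eed, a core subunit of Polycomb repressive complex 2, averaged 11.9 ± 8.1 FPKM in LCM_GFP and 67.1 ± 6.2 FPKM in FACS_GFP (SD, n = 4 and 3; limma adjusted p = 0.00850). Both calls were lost when any 1 FACS_GFP library was left out, as were most calls over all genes. Against FACS_WT, which was set against the same captured libraries, the calls were 3 higher and 0 lower of 8 tested cofactors, 1 and 2 of 4 for hindbrain patterning, 3 and 1 of 7 for retinoic acid, and 1 and 3 of 21 for Polycomb and trithorax, where 31.4% of all genes were called in either direction. Of these tested genes, 2, 2, 3 and 0 passed the filter through the captured libraries alone. No gene of these lists was called between FACS_GFP and FACS_WT.

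The Hox genes of libraries 1 and 3 came with embryonic and dividing-cell transcripts, of which libraries 2 and 4 held far less in sum. Summed over 6 embryonic and erythroid genes, the level was 3418, 4.06, 1730 and 0.449 FPKM in LCM_GFP libraries 1 to 4, against 1.51 to 3.17 FPKM in the sorted libraries. Summed over 11 dividing-cell and fetal genes it was 1513, 61.6, 223 and 47.1 FPKM, against 5.31 to 13.9 FPKM in the sorted libraries, with Afp listed at 0 in every captured library. Top2a, a topoisomerase of dividing cells, was at 251 and 43.9 FPKM in libraries 1 and 3 and at 2.23 and 2.22 FPKM in libraries 2 and 4. Not every gene of that list split this way. Cdk1 was at 8.83, 1.43, 9.79 and 13.8 FPKM in libraries 1 to 4, highest in library 4. Igf2 was at 450, 43.0, 29.8 and 26.8 FPKM, and Lin28b at 7.68, 0.0691, 0.0305 and 2.51 FPKM. Hoxa9, Hoxc6 and Hoxb8 were detected in libraries 1 and 3 and in neither of the others, whereas Hoxb5, Hoxb6 and Hoxc4 were as high or nearly as high in library 2, where the embryonic globins were at or under 2.16 FPKM. The summed level of 8 blood progenitor markers was 27.6 to 63.9 FPKM in LCM_GFP and 55.4 to 75.4 FPKM in the sorted libraries. Cd34 made up most of the sorted sum, at 52.7 to 71.4 FPKM, against 2.81 to 28.8 FPKM in LCM_GFP. Other markers of the list went the other way. Kit was at 17.1, 4.91, 0.306 and 29.1 FPKM in libraries 1 to 4 and at most 0.0453 FPKM in the sorted libraries. Flt3 was at 4.55, 4.15, 9.61 and 1.44 FPKM, against at most 0.658 FPKM. The summed level of 8 fibroblast and mural markers was 29.4 to 97.5 FPKM in LCM_GFP and 0.137 to 2.46 FPKM in the sorted libraries. The part of these cells in the Hox levels was not tested.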

How the data were processed

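RNA of 10 libraries was amplified with the Ovation method and sequenced, per the labels' protocols. CASAVA 1.8.2, TopHat2 2.0.4, Bowtie2 2.0.0, Cufflinks 2.0.2 and build mm9 are named, per the submitters' processing notes; annotation release and strand use are not given in the sources used here. The deposited table holds FPKM for 37447 genes, per the file headers. The deposited comparison table, in Cuffdiff layout per the file headers, holds the authors' p-value and q-value and a log2 fold change treated as a score, because it includes placeholder values for groups at 0.

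Each comparison used its 2 groups only, in limma 3.58.1 (R 4.3.3, trend and robust, statmod 1.5.0) on log2(FPKM + 1), which understates changes of low genes, after removing genes that did not reach 1 FPKM in 3 or more of the libraries, and with Benjamini-Hochberg adjustment over all genes tested. The test was checked on simulated data. Between 55.1% and 62.4% of low values of single-exon genes lay within 0.2 of a whole multiple of a step, so whole fragments were not recovered and depth is unknown. Tables used Python 3.11.15, pandas 2.3.3 and numpy 2.4.6; figures used matplotlib 3.10.9. Promoters are RefSeq sequences.

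Members and gene lists (15 lists, 177 genes, all matched, 2 through older symbols) were chosen with earlier results of these data known. Every Hox gene may be named. Of each pathway list, up to 8 genes by mean FPKM and those called in LCM_GFP against FACS_GFP may be named. Alternatives covered pseudocount, filter, scaling, replicate block, variance model and libraries left out. Replicate numbers were not found to pair libraries. Some members and list genes count in the totals but are not reported here by name.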

Additional observations from a re-analysis of the deposited data

Results flagged for a closer look

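Within the 4 LCM_GFP libraries, 17 of 63 genes examined had 1 library far from the other 3 on the log2(FPKM + 1) scale (Dixon's test at the 95% level); chance flags about 1 in 20. That rate does not apply to Lhx2, Otx1, Otx2, Tbx20, Isl1 and Lbx1, which were listed at 0 in the other 3 libraries, so that any value above 0 is flagged. Nor can it be relied on for genes near 0 in the other 3, such as Hoxb7 (at most 0.0086 FPKM there) and Hoxc10 (at most 0.116 FPKM). The share flagged over all genes was not worked out, so these counts show nothing particular to the Hox genes. Among 22 Hox genes, 5 were flagged. In library 1 these were Hoxb7 at 2.61 FPKM, Hoxc8 at 4.90, Hoxc9 at 5.14 and Hoxd4 at 2.35 FPKM. In library 3 it was Hoxc10 at 7.31 FPKM. Among 41 list genes, 12 were flagged. Library 1 was high for Gbx2 at 12.5, Tbx20 at 4.03 and Isl1 at 1.41 FPKM. It was low for Meis3 at 4.68 and Dhrs3 at 0.380 FPKM. Library 4 was high for Lhx9 at 17.1, Gata3 at 11.3, Otx2 at 6.25, Otx1 at 4.98, Lhx2 at 4.96 and Barhl2 at 1.504 FPKM, and library 2 for Lbx1 at 1.29 FPKM.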

How the results depend on the processing

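The number of Hox genes called by limma was 0 in each of the 3 comparisons and 0 under each of the 17, 17 and 14 alternatives run, including the replicate block (0 called) and each library left out (0 to 0). In most of these no member passed the filter, so the 0 says nothing about stability; members could be tested in 3, 3 and 1 alternatives. The 0.1 FPKM filter and the replicate block were also combined, a choice made after seeing the data. Against FACS_GFP, 5 of 6 members then had an unadjusted limma p under 0.05, and the lowest adjusted p was 0.0578 (Hoxa3). These 6 passed the filter through the captured libraries alone, and the share of all genes under 0.05 was not worked out. LCM_GFP library 4 has no same-numbered sorted library, so under the block it does not bear on the log2 change. That of Hoxa2, highest in library 4, fell from 1.11 to 0.66. Deviations of same-numbered libraries correlated at -0.029 to 0.006 for LCM_GFP against FACS_GFP, at -0.040 to -0.002 for LCM_GFP against FACS_WT and at 0.141, 0.010 and 0.214 for FACS_GFP against FACS_WT, so in no comparison did every pair exceed 0.1 and the numbers were not taken as pairs. The count of detected members depended on the minimum: at 5 FPKM it was 7 in library 1, 3 in library 3 and 0 in library 4, and at 0.1 FPKM it was 25 in library 3, against 22 in library 1. Of the 12 pathway genes called against FACS_GFP, none changed direction, and Meis2, Egr2 and Aldh1a1 kept their call under every alternative run for them. Meis2 and Aldh1a1 could not be tested with LCM_GFP libraries 2 and 4 only, and Egr2 could not be tested with a FACS_GFP library left out. The 9 other calls were each lost when any 1 FACS_GFP library was left out. Over all genes, calls fell then from 1681 higher and 2624 lower to 738 to 758 higher and 304 to 329 lower, so such a loss is not particular to these genes. Unknown depth limits all values near 0.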
